A study of Mus musculus with 12 samples.

Results

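Long-term hematopoietic stem cells (HSCs) are the rare bone marrow cells that rebuild all blood lineages for the life of a transplant recipient. A set of 10 mouse genes that are used to mark or isolate these cells was followed here through knockdown of Rad21, which encodes a subunit of cohesin, the ring complex that holds chromatin loops and sister chromatids together. The 10 genes were chosen by name, with earlier results of these data known, and all 10 were found among the 46078 genes counted. Of these, 5 code for proteins of the cell surface (Esam, Procr, Tek, Cd34, and Ly6a), 3 for transcription factors (Mecom, Hlf, and Hoxb5), and 2 for proteins of the cytoplasm (Fgd5 and Ctnnal1).

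RNA-seq counts were available for 12 libraries in 4 groups of 3. All cells came from bone marrow of C57BL/6 mice as LSK cells (lineage-, Sca-1+, c-Kit+), the compartment that holds stem cells and multipotent progenitors, and all were infected with a lentivirus that carries GFP and an shRNA, against luciferase in the controls (shLuci) or against Rad21 (shRad21). In culture, GFP+CD48-Sca-1+ cells were sorted 3 d after isolation and infection. In vivo, GFP+ LSK cells were reisolated from transplanted recipients, at 3 mo by the labels (the methods give a later time), after lethal irradiation of the recipients and a graft that also held LSK cells without virus from the same culture. The age of the donors is not given for these libraries. Each knockdown group is labeled with a single construct, so no second hairpin stands beside it. Libraries were made with TruSeq RNA v2 in culture and with SMART-Seq v4 and Nextera XT in vivo, so kit, sort, and time changed together with the setting and cannot be told apart.

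Each library held between 15235129 and 29846689 counts. As a check of the labels, the targeted gene was below its controls in all 6 knockdown libraries, with a log2 fold change of Rad21 of -1.52 ± 0.0885 (SE) in culture and -1.43 ± 0.0707 in vivo. Expression of a gene is given as counts per 1000000 counts (CPM) after scaling all 12 libraries together by the TMM method, which removes differences in depth and composition. Differences are log2 fold changes with the SE from edgeR's quasi-likelihood test, and a gene is called where the Benjamini-Hochberg adjusted p over all genes tested was under 0.05. No label states that replicates came from separate cultures or animals, so p-values measure the spread between these libraries, which may in part be technical.

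The genes mark HSCs by different roles. Esam is an adhesion molecule at cell junctions, Procr the endothelial protein C receptor (EPCR), and Tek the angiopoietin receptor Tie2. Cd34 is a sialomucin that is low on adult mouse long-term HSCs and higher on multipotent progenitors, so it runs opposite to the others as a marker, and Ly6a is the Sca-1 antigen itself. Mecom, Hlf, and Hoxb5 bind DNA, Fgd5 is an exchange factor for the small GTPase Cdc42, and Ctnnal1 (alpha-catulin) is a relative of alpha-catenin. Several of these genes are also expressed by endothelial cells.

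In control cells, the genes spanned a wide range of expression. Compared per 1000 exonic bases, the 10 genes in cultured shLuci cells ran from Ly6a (192 ± 32.3 CPM per 1000 bases, SD, n = 3) and Cd34 (130 ± 4.19) through Hlf (55.2 ± 7.78), Procr (39.6 ± 7.55), and Esam (27.4 ± 3.12) to Fgd5 (12.6 ± 2.73), Mecom (8.25 ± 0.512), Ctnnal1 (5.78 ± 0.254), Tek (3.13 ± 0.368), and Hoxb5 (1.64 ± 0.402). No pair of neighbors in this order had overlapping libraries. In vivo, the shLuci cells had Cd34 first (195 ± 8.13 CPM per 1000 bases), then Ly6a (121 ± 12.4), with Hlf (41.2 ± 4.79), Procr (41.0, libraries between 31.2 and 51.2), and Esam (33.7 ± 1.34) next. Hlf and Procr overlapped each other there, as did Procr and Esam and, further down, Mecom (6.55 ± 1.08) and Tek (5.98 ± 0.998). Fgd5 (3.19 ± 0.396), Ctnnal1 (1.65 ± 0.235), and Hoxb5 (0.999 ± 0.0564) were lowest.

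**Figure D1:**
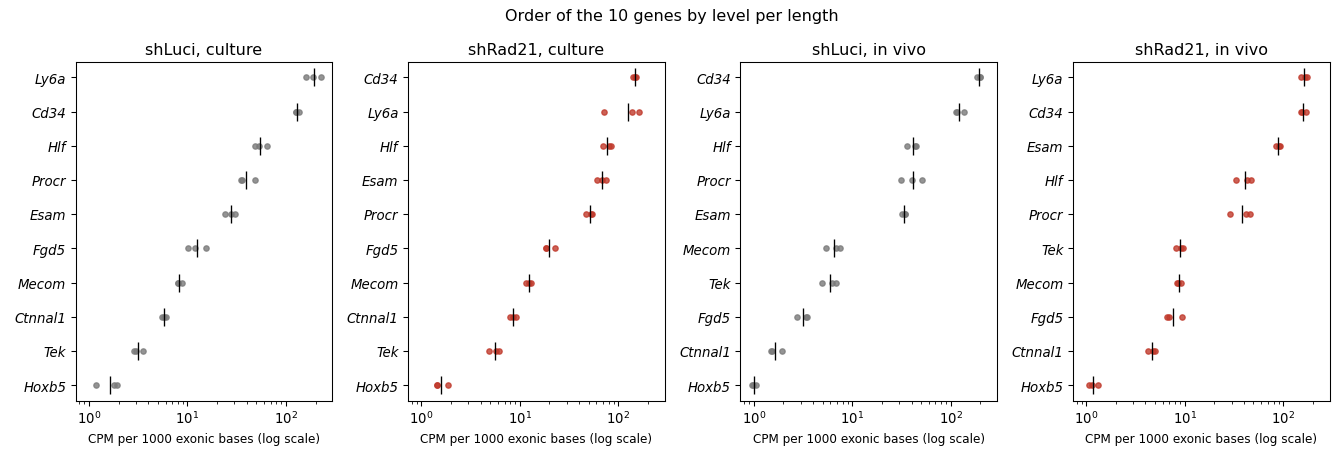
Level of each gene in CPM per 1000 exonic bases (horizontal log axis) in the 4 groups, with genes ordered by their group mean. Points are the 3 libraries of a group and the vertical tick is the mean. Esam ranked 5 of 10 in both control groups, 4 in cultured shRad21 cells, and 3 in shRad21 cells in vivo.

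The order shifted with knockdown. Esam reached 68.5 ± 6.95 CPM per 1000 bases in cultured shRad21 cells, where its libraries overlapped those of Hlf (77.5 ± 7.35), and 89.5 ± 4.61 in vivo, above Hlf (41.0 ± 6.75) with no overlap. Hoxb5 stayed lowest in all 4 groups.

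Start regions are shown for the genes that were called higher under knockdown in both experiments and that have a promoter window in the reference table, so that they can be compared. The windows hold 250 bases before and 50 after the transcription start (RefSeq, GRCm38.p6), written 5′ to 3′ on the gene's strand: Tek at chr4:94739039-94739338 (plus strand), Mecom with 2 windows on the minus strand of chromosome 3, Fgd5 at chr6:91978715-91979014 (plus strand), and Ctnnal1 at chr4:56865162-56865461 (minus strand). Capitals mark matches to a GATA motif (the letters AGATAA, the variant AGATAG, the form TGATAA, and finally the form TGATAG) or to a GC box (the letters GGGCGG), each searched on both strands.
Tek: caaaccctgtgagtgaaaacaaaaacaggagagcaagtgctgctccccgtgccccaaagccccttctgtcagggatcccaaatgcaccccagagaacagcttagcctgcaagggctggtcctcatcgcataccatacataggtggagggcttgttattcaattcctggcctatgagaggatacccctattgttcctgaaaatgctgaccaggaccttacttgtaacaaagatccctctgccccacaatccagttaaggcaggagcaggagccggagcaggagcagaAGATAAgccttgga
Mecom, window at chr3:30013155-30013454: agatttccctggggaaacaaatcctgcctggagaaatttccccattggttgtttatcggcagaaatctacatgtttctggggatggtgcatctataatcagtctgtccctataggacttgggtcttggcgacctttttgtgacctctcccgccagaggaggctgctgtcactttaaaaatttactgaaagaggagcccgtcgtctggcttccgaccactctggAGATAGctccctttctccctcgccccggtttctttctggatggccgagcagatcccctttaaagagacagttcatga
Mecom, window at chr3:30509710-30510009: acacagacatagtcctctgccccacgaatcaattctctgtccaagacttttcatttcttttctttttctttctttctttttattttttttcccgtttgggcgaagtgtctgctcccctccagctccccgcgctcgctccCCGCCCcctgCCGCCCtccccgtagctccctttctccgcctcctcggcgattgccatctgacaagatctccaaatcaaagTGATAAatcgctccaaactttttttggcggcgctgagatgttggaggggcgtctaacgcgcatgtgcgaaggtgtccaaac
Fgd5: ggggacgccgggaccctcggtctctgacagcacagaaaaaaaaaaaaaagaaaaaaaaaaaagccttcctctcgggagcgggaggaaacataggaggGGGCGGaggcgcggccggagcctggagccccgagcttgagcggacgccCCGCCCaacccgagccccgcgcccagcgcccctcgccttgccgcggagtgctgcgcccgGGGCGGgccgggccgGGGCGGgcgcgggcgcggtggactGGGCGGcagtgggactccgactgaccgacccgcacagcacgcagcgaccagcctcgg
Ctnnal1: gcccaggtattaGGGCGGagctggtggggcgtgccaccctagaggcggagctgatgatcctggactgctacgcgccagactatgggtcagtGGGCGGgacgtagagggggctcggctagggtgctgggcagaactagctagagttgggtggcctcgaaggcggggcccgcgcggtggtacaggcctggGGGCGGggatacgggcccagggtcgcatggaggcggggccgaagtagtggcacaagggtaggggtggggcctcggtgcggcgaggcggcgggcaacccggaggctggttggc

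Tek and both Mecom windows held a GATA match, as did 29.8% of all 32851 windows, and the window of Cd34 held another. Fgd5 and Ctnnal1 held no GATA match but 5 and 3 GC boxes, at a GC content of 71.3% and 70.3% against a median of 52.7% over all windows. Hlf held 3 GC boxes, the upstream Mecom window held 2, and GC boxes were found in 35.7% of all windows. The window of Procr held neither. No member window held the ETS motif CCGGAAG, which was in 8.86% of all windows. The same held for the RUNX motif TGTGGT, in 16.8% of all windows, and for the TATA box TATAAA, in 13.6%. The motif of PAR bZIP factors, the family of Hlf, was searched as TTACGTAA and as TTACATAA, which were in 1.06% of all windows and in no member window.

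Knockdown in culture asks how the genes respond within days in the presence of growth factors. Of the 10 genes, 6 were higher in shRad21 than in shLuci cells (Esam, Tek, Mecom, Hlf, Fgd5, and Ctnnal1). By this edgeR test and by DESeq2, none was called lower, although Ly6a (-0.62) was lower at an unadjusted p of 0.0244 by edgeR. DESeq2 also called Procr higher. By comparison, 6.18% of all genes tested were called higher and 14.2% were called in either direction. The median log2 fold change of the 10 genes was 0.53, against -0.0039 over all genes. The libraries of 7 of the 10 genes did not overlap between groups, all with shRad21 higher, beside 31.5% of all genes in either direction. With the replicate number as a block, edgeR also called Ly6a lower (-0.69, adjusted p = 0.000464) and Procr higher (0.40, adjusted p = 0.00352). That fit called 3186 of 15543 genes, against 2213 without the block.

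Knockdown in vivo asks the same of cells that had engrafted. Again 6 genes were higher (Esam, Ctnnal1, Fgd5, Tek, Ly6a, and Mecom), beside 5.65% of all genes, and Cd34 was lower, beside 5.32% of all genes. The median was 0.44, against -0.0019 over all genes. Libraries did not overlap for 8 genes, 7 higher and 1 lower in shRad21 cells, beside 29.1% of all genes. Of these, Hoxb5 lay apart only by 2.965 CPM in shRad21 against 2.964 CPM in shLuci cells, and was not called (edgeR adjusted p = 0.5575). As many as 5 genes, Esam, Tek, Mecom, Fgd5, and Ctnnal1, were called higher in both experiments, which held for 1.87% of the genes tested in both.

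**Figure D2:**
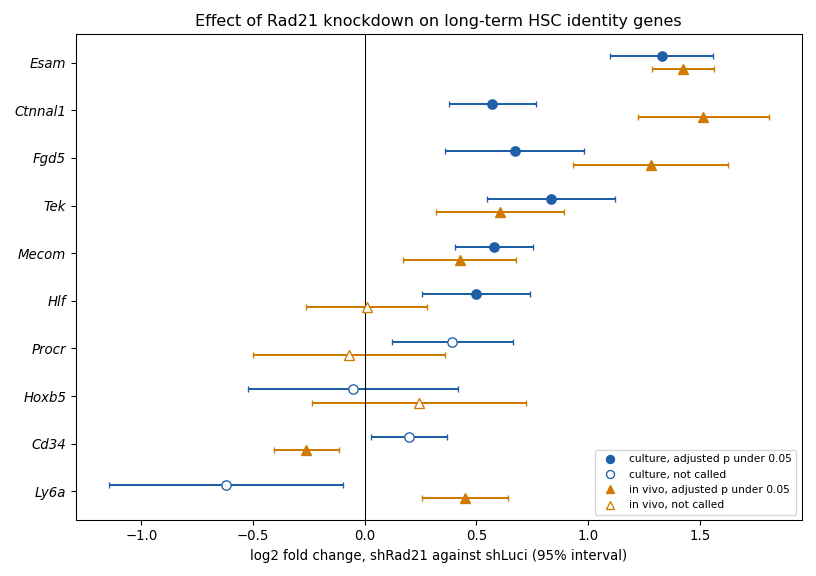
Log2 fold change of each gene between shRad21 and shLuci cells (horizontal axis) in culture (circles) and in vivo (triangles), with 95% intervals from the edgeR fit. Filled symbols have an adjusted p under 0.05. Esam had like effects in both experiments (1.33 and 1.43), and Ctnnal1 did not (0.57 and 1.52).

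Among the surface proteins, Esam moved most evenly. In culture, Esam was at 80.2, 69.0, and 86.6 CPM in the shLuci libraries and at 175.7, 198.0, and 215.4 CPM in the shRad21 libraries. In vivo it was at 99.0, 92.2, and 98.6 CPM in shLuci and at 268.5, 242.4, and 258.9 CPM in shRad21. Every shRad21 library lay above every shLuci library, by a wide gap in both experiments. The log2 fold change was 1.33 ± 0.105 in culture (2.51-fold, edgeR adjusted p = 3.18e-05) and 1.43 ± 0.0620 in vivo (2.69-fold, edgeR adjusted p = 3.86e-06). The effects differed by -0.09 on the log2 scale between culture and in vivo, with a 95% interval from -0.36 to 0.19.

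Tek, the receptor for angiopoietins, was the least expressed surface gene of the set per length. It was at 13.4, 14.2, and 16.7 CPM in cultured shLuci cells and at 22.7, 27.0, and 29.2 CPM in shRad21 cells, which gave a log2 fold change of 0.83 ± 0.131 (edgeR adjusted p = 0.00176). In vivo, shLuci libraries were at 32.2, 23.0, and 29.4 CPM and shRad21 libraries at 43.5, 45.1, and 38.8 CPM, a log2 fold change of 0.61 ± 0.128 (edgeR adjusted p = 0.0144). Groups did not overlap in either experiment, and the difference between the effects, 0.24, had a 95% interval from -0.17 to 0.65.

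Procr, the receptor behind the EPCR antigen used to sort HSCs, was not called in either experiment by the main edgeR test. In culture, 5 of 13 alternatives called it higher, among them DESeq2, library size only, and no filter. Cultured shLuci libraries were at 98.1, 72.2, and 70.9 CPM and shRad21 libraries at 110.6, 94.8, and 108.3 CPM. A single shLuci library, replicate 1, reached into the range of the shRad21 group. The log2 fold change was 0.39 ± 0.123 (edgeR adjusted p = 0.0579). Replicate numbers were taken to pair the libraries in culture because same-numbered libraries deviated together in these same counts, and the study states no pairing. With the replicate number as a block the adjusted p was 0.00352 by edgeR, with a log2 fold change of 0.40. As the block was chosen from these data, that p is not independent support. Without shLuci replicate 1 it was 0.56 (edgeR adjusted p = 0.00467). In vivo, Procr overlapped fully, at 63.4, 82.6, and 104.0 CPM in shLuci and 84.8, 58.1, and 92.5 CPM in shRad21 cells, with a 95% interval of the log2 fold change from -0.50 to 0.36.

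Cd34, the marker that is low on long-term HSCs, differed in direction between the experiments. In culture its shLuci libraries were at 929.3, 982.6, and 930.1 CPM and its shRad21 libraries at 1038, 1088, and 1114 CPM, without overlap, but the log2 fold change of 0.20 ± 0.0776 was not called (edgeR adjusted p = 0.127). In vivo the direction turned, with 1443, 1462, and 1351 CPM in shLuci and 1116, 1258, and 1138 CPM in shRad21 cells. All shRad21 libraries lay below all shLuci libraries there, with a log2 fold change of -0.26 ± 0.0657 (edgeR adjusted p = 0.0316). The call in vivo was lost without shLuci replicate 1 or 2 or without shRad21 replicate 1 or 3, with log2 fold changes between -0.32 and -0.22 and adjusted p up to 0.131 over all libraries left out in turn. The difference between the effects, 0.47 ± 0.0911, was called (edgeR adjusted p = 0.00832).

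Ly6a, the gene of the Sca-1 antigen, was part of the sort in both experiments, so its level was bounded on the protein side by the gate. In culture it was at 194.5, 272.0, and 228.4 CPM in shLuci and at 85.8, 167.2, and 196.4 CPM in shRad21 cells. The shRad21 libraries varied widely, with a coefficient of variation of 38.3%, and replicate 3 overlapped the controls. The log2 fold change was -0.62 ± 0.238 (edgeR adjusted p = 0.117), and with the replicate number as a block it was -0.69 (edgeR adjusted p = 0.000464). Without shRad21 replicate 1, the lowest library, it was -0.33, and without shRad21 replicate 3 it was -0.86 (edgeR adjusted p = 0.0434). In vivo, Ly6a was at 138.1, 137.3, and 163.5 CPM in shLuci and at 180.9, 209.4, and 201.3 CPM in shRad21 cells, all higher. The log2 fold change in vivo was 0.45 ± 0.0859 (edgeR adjusted p = 0.00908), and a single model of all 12 libraries, which shares the spread of the cultured cells, gave an adjusted p of 0.232 by edgeR. The difference between the effects was -1.06 ± 0.300 (edgeR adjusted p = 0.0587), or -1.13 with the replicate block (edgeR adjusted p = 0.00649). That difference was called in 6 of 18 alternatives, among them DESeq2, no filter, and 10 counts in every library.

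**Figure D3:**
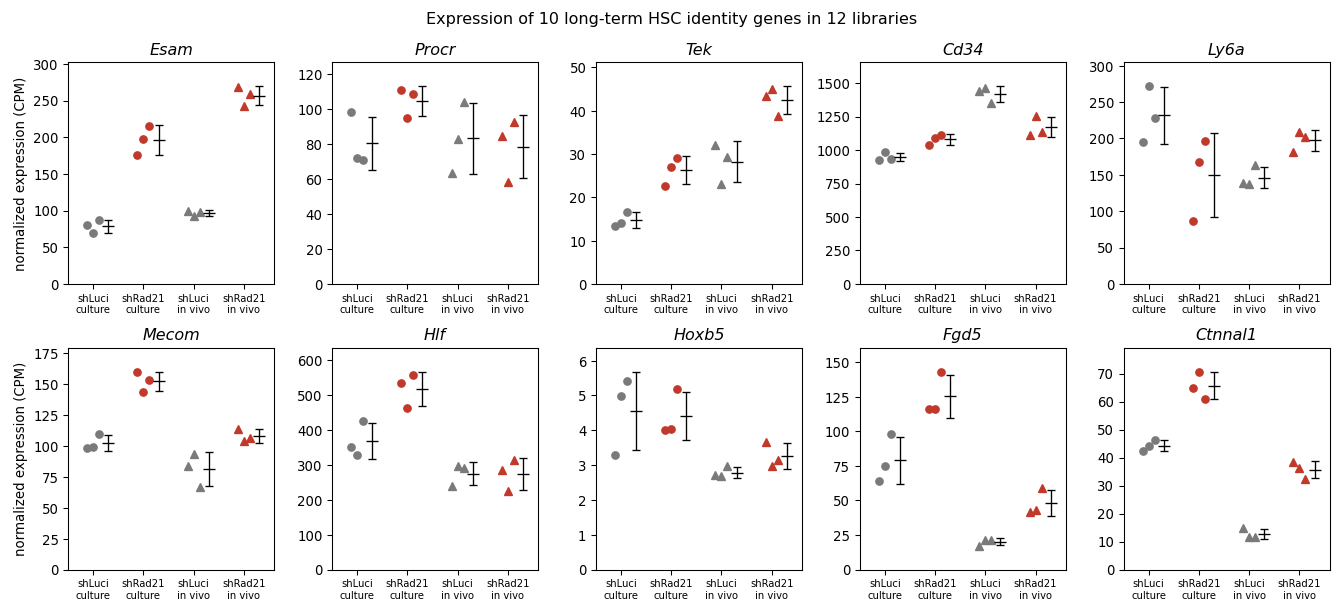
Normalized expression in CPM (vertical axes from 0) of the 10 genes in each of the 12 libraries. Gray symbols are shLuci and red symbols shRad21 libraries, circles culture and triangles in vivo, and black bars give the mean and SD of 3 libraries. Red lies above gray without overlap in both experiments for Esam, Tek, Mecom, Fgd5, and Ctnnal1.

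Among the transcription factors, Mecom, whose longest form carries a PR domain and which is required to maintain HSCs, was higher in both experiments. In culture it was at 98.5, 99.3, and 109.9 CPM in shLuci and at 159.5, 143.9, and 153.5 CPM in shRad21 cells, which gave a log2 fold change of 0.58 ± 0.0795 (edgeR adjusted p = 0.000849). In vivo it was at 84.0, 93.3, and 66.9 CPM in shLuci and at 114.1, 103.7, and 106.7 CPM in shRad21 cells. The groups stayed apart in vivo too, but the call there was near the threshold, with a log2 fold change of 0.43 ± 0.113 (edgeR adjusted p = 0.0403). It was lost without any 1 of 5 libraries, all but shLuci replicate 2, with adjusted p up to 0.116. Of the exonic bases of Mecom, 0.652% are shared with an antisense gene, Mecomos, and neither kit marks strand.

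Hlf, a PAR bZIP factor whose expression follows the most primitive cells, was called higher in culture. Cultured shLuci libraries were at 352.1, 326.9, and 426.8 CPM and shRad21 libraries at 532.9, 462.8, and 557.4 CPM, a log2 fold change of 0.50 ± 0.110 (edgeR adjusted p = 0.0119). The call was lost without shLuci replicate 2 (edgeR adjusted p = 0.0616). In vivo, the groups overlapped, at 238.3, 296.4, and 290.5 CPM in shLuci and 284.4, 224.6, and 312.9 CPM in shRad21 cells, with a 95% interval of the log2 fold change from -0.26 to 0.28. The effects were not shown to differ (0.50 ± 0.181, edgeR adjusted p = 0.153).

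Hoxb5, a homeobox factor whose reporter allele marks long-term HSCs, had the lowest level of the set per length in all 4 groups. It lay between 3.30 and 5.42 CPM in cultured cells and between 2.67 and 3.66 CPM in vivo, over both shRNAs, while 3 counts amount to between 0.107 and 0.211 CPM in these libraries. The 95% interval of the log2 fold change ran from -0.52 to 0.42 in culture and from -0.23 to 0.72 in vivo, so that a change of moderate size in either direction was not detectable here. An antisense gene, Hoxb5os, shares 3.59% of its exonic bases.

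Among the cytoplasmic proteins, Fgd5, whose locus has been used to tag HSCs, was higher in both experiments. In culture it was at 64.4, 74.8, and 97.9 CPM in shLuci and at 116.5, 116.4, and 143.3 CPM in shRad21 cells, which gave a log2 fold change of 0.67 ± 0.142 (edgeR adjusted p = 0.00915). Without shLuci replicate 2 the adjusted p was 0.0538 by edgeR. In vivo it was at 17.2, 21.6, and 21.4 CPM in shLuci and at 42.0, 43.1, and 59.4 CPM in shRad21 cells. All 3 libraries of the knockdown stood well above the controls in vivo, with a log2 fold change of 1.28 ± 0.156 (edgeR adjusted p = 0.000844). The difference between the effects was -0.60 ± 0.229 (edgeR adjusted p = 0.173), or -0.58 with the replicate block (edgeR adjusted p = 0.0355).

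Ctnnal1, which like Fgd5 has served as a reporter locus for HSCs, had the largest effect of the 10 genes in vivo. Cultured shLuci libraries were at 42.5, 44.1, and 46.3 CPM and shRad21 libraries at 65.0, 70.7, and 61.1 CPM, a log2 fold change of 0.57 ± 0.0889 (edgeR adjusted p = 0.00170). In vivo it was at 14.7, 11.5, and 11.7 CPM in shLuci and at 38.4, 36.2, and 32.4 CPM in shRad21 cells, which gave a log2 fold change of 1.52 ± 0.131 (2.86-fold, edgeR adjusted p = 0.000143). The groups stood apart in both experiments, and the effects differed by -0.93 ± 0.148 between culture and in vivo (edgeR adjusted p = 0.00224). Ctnnal1 and Cd34 were the 2 genes of the set with a called difference between the effects, beside 4.67% of all genes.

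Control cells of the 2 settings were compared to place these values. Of the 10 genes, 9 were called, but so were 74.2% of all genes, and the setting cannot be told apart from kit and sort. Fgd5 (log2 fold change 1.98 ± 0.169) and Ctnnal1 (1.81 ± 0.110) were higher in culture by the widest margin, followed by Hoxb5 (0.72 ± 0.217), Ly6a (0.66 ± 0.212), Hlf (0.42 ± 0.128), and Mecom (0.33 ± 0.102). Tek (-0.93 ± 0.139), Cd34 (-0.58 ± 0.0646), and Esam (-0.30 ± 0.0927) were lower in culture, and Procr was not called (-0.06 ± 0.185). With scaling by library size only, the median of all genes moved to -0.18, and Mecom (0.16) and Hlf (0.25) were no longer called. With upper-quartile scaling the median moved to -0.12, and Mecom (0.21) was no longer called. Without shLuci replicate 2 of culture, Esam (-0.20) and Ly6a (0.54) were no longer called.

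Other genes known as HSC-enriched were higher mostly in vivo. By the test of the difference, 8 of 27 had a lower effect in culture than in vivo. That test called 4.67% of all genes in either direction. Of 28 listed, 27 were tested in vivo, of which 15 were higher and 2 lower in shRad21 cells, with a median log2 fold change of 0.87. The shares of all genes were 5.65% higher and 5.32% lower in vivo, and 14.2% in either direction in culture. Vwf (3.16), Neo1 (2.30), Sult1a1 (2.21), and Slamf1 (2.05), the gene of CD150, rose most, and Ifitm1 (-0.50) and Cd82 (-0.58) fell. In culture, 3 of 26 were higher, among them Slamf1 (1.21) and Vwf (0.80), and 6 were lower, among them Sox18 (-1.26), Cd9 (-0.88), and Ifitm1 (-0.80). Vwf went from 15.8 ± 0.710 to 139.6 ± 8.15 CPM in vivo and from 76.4 ± 18.9 to 132.4 ± 22.9 CPM in culture (SD, n = 3).

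Of 19 other stem cell transcription factors listed and tested, 12 were higher, 2 lower, and 5 not called in culture, with a median log2 fold change of 0.38. In vivo, 9 were higher, 2 lower, and 8 not called, with a median of 0.33. The shares of all genes called higher were 6.18% in culture and 5.65% in vivo. Lmo2, a partner of Tal1, was lower in both (-0.48 and -0.35). Gata2 (0.65 and 0.63) and Fli1 (0.72 and 0.33), both regulators of HSCs, were higher in both. Gfi1, a repressor, was higher in culture (0.98) and lower in vivo (-0.97), its relative Gfi1b did the reverse (-0.93 and 0.60), and Mycn was called only in the test in vivo (1.18).

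Of 16 genes listed for multipotent progenitors, 10 were lower in vivo and the other 6 were not called, with a median of -0.89. Of the 13 tested in culture, 7 were lower, 2 higher, and 4 not called, with a median of -0.37. The shares of all genes were 5.32% lower in vivo and 14.2% in either direction in culture. The 2 that were higher in culture were Ccr9 (2.49) and Cd27 (0.56). Flt3, the receptor that marks lymphoid-primed progenitors, was lower in culture (-1.12) and in vivo (-1.61). Rag1 (-2.83), Il7r (-2.34), Dntt (-2.30), and Irf8 (-1.76) were lower in vivo. Of these, Rag1 (2.66 against 0.363 CPM in shLuci and shRad21 cells) and Il7r (10.6 against 2.06 CPM) rest on low levels. Dntt was at 534.6 against 107.0 CPM and Irf8 at 99.8 against 29.1 CPM. Kit, the gene of the c-Kit antigen of the LSK gate, was lower in culture (-1.42) and in vivo (-0.42). The final sort used c-Kit in vivo but not in culture. Cd48, against which the cultured cells were gated, was not called in either (0.15 and -0.43). In bulk libraries, fewer cells of a type and less RNA per cell cannot be told apart, so these values do not say whether stem cells were more frequent or expressed more of the set.

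**Figure D4:**
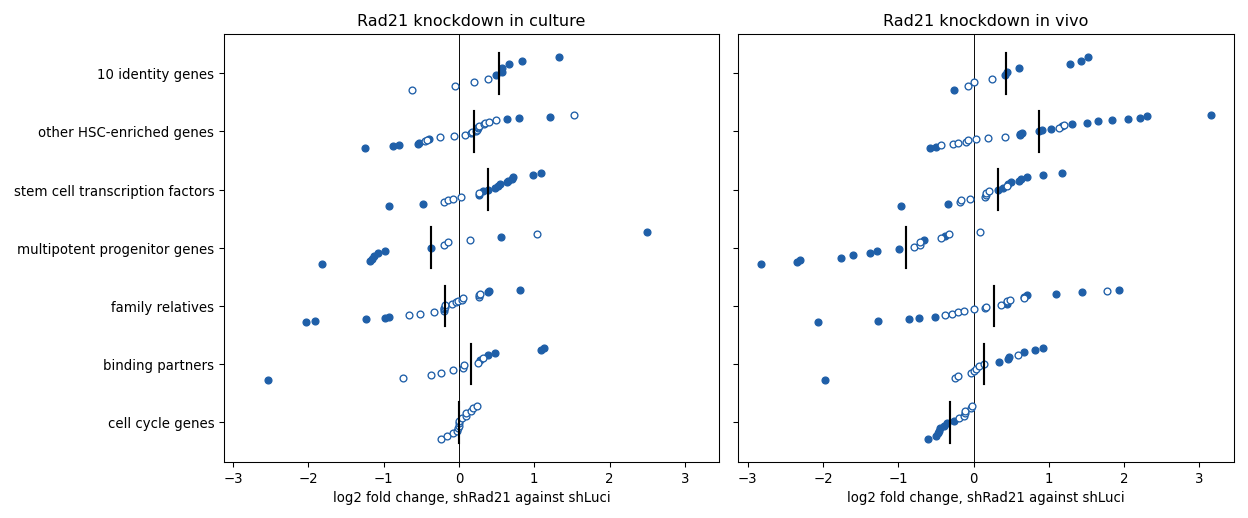
Log2 fold change between shRad21 and shLuci cells (horizontal axes, same scale) of each tested gene in 7 gene lists, in culture (left) and in vivo (right). Filled points have an adjusted p under 0.05 and black lines are list medians. In vivo the median of other HSC-enriched genes lay at 0.87 and that of multipotent progenitor genes at -0.89.

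Genes that work with the members or resemble them were called in both directions. Of the binding partners, 14 were tested in culture, of which 5 were higher and 1 lower, beside 6.18% of all genes called higher. Of 15 tested in vivo, 6 were higher and 1 lower, beside 5.65% and 5.32% of all genes. F2r, the thrombin receptor through which activated protein C bound to EPCR signals, was higher in both (1.13 and 0.81). Procr itself was not called by the main test. Tie1, the partner receptor of Tek, was called higher in vivo (0.67), with 0.32 in culture, and Angpt1, a ligand of Tek, was called higher in vivo (0.34), with -0.24 in culture.

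Of the family relatives, 24 were tested in each experiment, of which 3 were higher and 5 lower in culture and 6 were higher and 5 lower in vivo. The shares of all genes were 14.2% in either direction in culture, and 5.65% higher and 5.32% lower in vivo. Jam2, an adhesion molecule of the same superfamily as Esam, went down in culture (-1.92) and up in vivo (1.94), and Podxl, a sialomucin related to Cd34, turned the same way (-0.93 and 1.10). Jam3 was higher in vivo (1.44). Ly6e, a relative of Ly6a on the same chromosome, was lower in both (-1.24 and -0.51). Counts of Ly6 genes are less certain than those of other members, since the family holds close copies and the handling of reads that fit several genes is not given in the sources used here.

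Neighbors on the chromosome mostly did not move with a member. The nearest tested coding gene on either side was called in the same direction as a called member in both experiments for Esam only, whose neighbor Vsig2, 935 bases after its end, was higher in culture (1.05) and in vivo (1.67), while Msantd2 on the other side was not called (-0.13 and -0.14). Next to Hlf, Stxbp4 was higher (0.45) and Mmd lower (-0.46) in culture. The neighbors of Tek, Mecom, Fgd5, and Ctnnal1 were not called in either experiment. Their gaps varied widely, from 1333 bases between Fam206a and Ctnnal1 to 1143871 bases between Rpl22l1 and Mecom, so not all are close.

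Over the 4 group means, each centered on the log2 scale, the profile nearest to that of Esam belonged to Trpc6 (root-mean-square difference 0.152), and Gm11346 (0.165) came next. Smarcd3 (0.0326) and Plxna1 (0.0658) were nearest to Fgd5, Ptpru (0.0284) and Ak1 (0.0861) to Ctnnal1, and Eya2 (0.0837) and Bmp1 (0.0938) to Tek. Of 12798 genes searched, none came within 0.1 of Esam, 4 of Tek, 3 of Fgd5, and 2 of Ctnnal1, whereas 353 came within that distance of Cd34 and 413 of Hoxb5. Between them lay Ly6a (9), Mecom (31), Hlf (65), and Procr (178). The profiles differ in width, with centered means from -0.380 to 0.286 for Hoxb5 and from -1.46 to 1.18 for Fgd5. Numbers within a fixed distance therefore do not rank the genes by how distinct they are. Likeness rests on 4 points that share their libraries and is given as a description.

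Markers of other cells are given beside these results because several members are also endothelial genes. Of 12 endothelial markers, 9 were tested in each experiment. Of these, 1 was higher and 1 lower in culture, beside 14.2% of all genes called in either direction. In vivo, 2 were higher and 1 lower, beside 5.65% and 5.32% of all genes. Their summed level was between 459.9 and 486.0 CPM in shLuci and 421.8 and 519.3 CPM in shRad21 cells in culture, and between 284.8 and 321.1 and between 222.6 and 251.4 CPM in vivo. Cdh5 (VE-cadherin), which defines endothelium, was at most 0.909 CPM in any library. Pecam1 and Egfl7, which blood progenitors also express, made up most of the sum. Emcn, shared by HSCs and endothelium, was higher in both (1.14 and 0.77), and Cldn5 was higher in vivo (3.89), at 0.167 against 2.55 CPM.

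Markers of other lineages were called too, in both experiments. The shares of all genes, for this paragraph, were 14.2% in either direction in culture, and 5.65% higher and 5.32% lower in vivo. B cell markers were lower in vivo for 4 of 6 genes tested, with summed levels between 83.2 and 112.8 CPM in shLuci and 53.9 and 71.6 CPM in shRad21 cells, and megakaryocyte markers were higher for 3 of 5, with sums between 244.7 and 310.9 and between 453.0 and 607.5 CPM. In culture, 3 of 5 megakaryocyte markers were higher and 2 lower, 2 of 3 tested monocyte and macrophage markers were lower (Csf1r at -1.82 and Cd14 at -1.97), and 1 of 3 tested mast cell and basophil markers was higher (Cpa3 at 2.03). Of the B cell and the erythroid markers, 1 of 2 tested each was lower in culture. Neutrophil markers summed to between 140.2 and 256.8 CPM in shLuci and 85.9 and 264.2 CPM in shRad21 cells in vivo, with overlap. Of 14 cell cycle genes, 8 were lower in vivo, with a median log2 fold change of -0.31, against a median of -0.00028 in culture. T cell markers summed to between 74.5 and 92.8 CPM in shLuci and 27.7 and 30.6 CPM in shRad21 cells in vivo, with Lck lower (-1.47). Lck alone made up most of these sums, at means of 78.3 and 27.9 CPM. Cd3e, Cd3d, Cd3g, and Cd8a had group means of at most 0.221 CPM in vivo, and Cd4 had 2.12 CPM in shLuci and 1.02 CPM in shRad21 cells. The sums thus mostly follow Lck, and whether they hold T cells was not tested. In vivo, 3 of 8 erythroid, 2 of 6 monocyte and macrophage, and 1 of 3 tested stromal markers were lower, and 1 of 5 mast cell and basophil markers was higher. The part of these other cells and of cell cycle in the values of the 10 genes was not tested.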

How the data were processed

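The authors removed rRNA reads, trimmed the rest, mapped them to GRCm38 (mm10) with TopHat2 2.0.11, and counted them on genes with HTSeq 0.6.1, per the submitters' processing notes and the methods. The strand setting and annotation release of the counting are not given in the sources used here. The deposited values are raw counts per gene, whole numbers without normalization, for 12 libraries of between 15235129 and 29846689 counts. Limits from depth cover counting error only, as PCR copies of a molecule were counted along with it. Groups and replicate numbers were taken from the sample titles and descriptions.

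Members were found by symbol through GENCODE M21, which matched 45229 of 46078 genes. The members and gene lists were chosen with earlier results of these data known. Counts were analyzed with edgeR 4.0.16 in R 4.3.3 (TMM scaling, filterByExpr with at least 10 counts in 3 libraries and 15 in total, quasi-likelihood test, two-sided, Benjamini-Hochberg adjustment over all genes tested). Knockdown was tested within each experiment, on 15543 genes in culture and 15938 in vivo. Control cells and the difference between the effects used all 12 libraries and 17050 genes. Named genes were the 10 members, up to 4 called genes with the largest change in a list and those a statement singles out, the 2 nearest profiles among genes whose mean log2 CPM reached 1, and the nearest tested coding gene on either side. Some genes that this rule names are not reported here. Lists are described by counts and medians, without a set test.

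Samples with the same replicate number deviated together in culture (correlation of deviations from the group mean between 0.287 and 0.303 for the 3 pairs) but not in vivo (between 0.0099 and 0.0957), so the numbers were taken to pair libraries in culture. Alternatives were DESeq2 1.42.0, upper-quartile scaling, library size only, no filter, 10 counts in every library, the replicate block, a single model of all 12 libraries, only the control libraries, and leaving out each library. The tests were checked on simulated counts with known changes. Where each simulated gene kept its own estimated spread, the share of false calls ran above the nominal threshold for both tools in most comparisons, so calls near the threshold are less firm than their adjusted p states. Figures used Python 3.11.15 and matplotlib 3.10.9.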

Additional observations from a re-analysis of the deposited data

Results flagged for a closer look

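In the set, 2 genes had knockdown effects that differed between culture and in vivo by the test of the difference itself (edgeR, all 12 libraries). For Cd34 the effect in culture exceeded that in vivo by 0.47 ± 0.0911 on the log2 scale (edgeR adjusted p = 0.00832), with all 3 cultured shRad21 libraries above their controls and all 3 in vivo below theirs. For Ctnnal1 the difference was -0.93 ± 0.148 (edgeR adjusted p = 0.00224), with all shRad21 libraries above their controls in both experiments and the larger effect in vivo. Ly6a had the widest difference of the set (-1.06 ± 0.300). It was not called in the main test (edgeR adjusted p = 0.0587) but was in 6 of 18 alternatives. Kit, sort, and time differ together between the experiments and cannot be told apart. Groups of 3 libraries are too small for a test of single outlying libraries.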

How the results depend on the processing

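The numbers of members called were 6 in culture, 7 in vivo, 9 between control cells, and 2 for the difference between the effects. The last rose to 6 without a filter and to 4 with the replicate block, which added Ly6a (-1.13) and Fgd5 (-0.58). In culture the block gave 8 members, adding Procr and Ly6a, and it changed no other call of a member. Over all genes, the block in culture gave 3186 of 15543 called, against 2213. Leaving out each library in turn gave between 4 and 7 members in culture, 5 and 6 in vivo, 7 and 9 between control cells, and 2 and 3 for the difference. Signs turned only for uncalled members: Hoxb5 in culture (between -0.225 and 0.088 with a library left out), Procr in vivo (-0.24 and 0.11), Procr between control cells (-0.21 and 0.14), and Hlf in vivo (-0.0938 and 0.133, and -0.00582 in the model of all 12 libraries). Over members, comparisons, and alternatives, 582 values kept their direction and side of the threshold, 17 lost the call, 18 gained it, and 13 turned sign. The cause was not tested. Over all genes, 1749 were called in vivo, against 2829 without a filter and between 951 and 1562 with a library left out. In culture 2213 were called, against 2988 without a filter and between 1352 and 2817 with a library left out. For the difference, 796 were called, against 1294 with DESeq2, 1409 without a filter, and between 492 and 845 with a library left out. Hoxb5 rests on the fewest counts per length, at under 6 CPM in every library.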
